A study of Mus musculus with 12 samples.

Results

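Microglia signature genes are the transcripts by which resident brain macrophages are told apart from other leukocytes. Here they are followed in RNA of mouse CD4+ T cell samples from experimental autoimmune encephalomyelitis (EAE), a T cell driven model of multiple sclerosis. Members were taken by name: P2ry12, P2ry13, Tmem119, Sall1, Olfml3, Siglech, Gpr34 and Fcrls, 8 of 30101 names on the array. A gene with several probes was read from its brightest one. No measured difference entered that choice, although it was made with earlier results of these data known.

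The study compared 4 groups of 3 arrays, drawn from 3 independent experiments. The naive group was splenic CD4+ T cells of B6.2d2 transgenic animals, which carry a T cell receptor for myelin oligodendrocyte glycoprotein (MOG). The culture group was Th17 cells differentiated in vitro from such cells. The transfer group was CD4+ T cells of that origin recovered from the central nervous system (CNS) of Rag1-/- recipients at the peak of EAE. Those recipients lack mature T and B cells of their own and keep their microglia, monocytes and other myeloid cells. The immunised group was CD4+ T cells of C57BL/6 mice given the MOG35-55 peptide, likewise from the CNS and at the peak of disease. These mice had all their own lymphocytes and no transgenic receptor, so strain, receptor and route of disease change together between the CNS groups. The labels give neither the method nor the purity of the cell isolation, nor the ages or the number of animals behind an RNA sample, so the p-values measure the spread between these samples.

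Microglia settle in the brain before birth and keep themselves by division, under the control of the CSF1 receptor, the factor PU.1 and local TGF-beta. Surface receptors for nucleotides and lipids let their processes sense injured neighbours, and the factor Sall1 holds their gene programme in place. In EAE, microglia and monocyte-derived macrophages share the inflamed tissue with T cells, and activated microglia are known to lower several of these genes. Some of the names are not exclusive. P2ry12 is also a platelet gene, Siglech marks plasmacytoid dendritic cells, and Gpr34 is known in several leukocytes.

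Siglech needed a look at its sequence before its values could be read, because its 3 probes gave different answers. The last 30 bases of each 60-base probe, positions 31 to 60 in the array files, are shown. Capitals mark 4 whole units of a GAAA run.
Siglech brightest probe: tctgtctcaaaGAAAGAAAGAAAGAAAgaa
Siglech second probe: ctccaaagttgaagaggctttgacttagtt
Siglech probe of the other transcript: ccctggtggattcctcccaacatttctgga
The brightest probe ends in a tandem repeat that spans 22 bases, and the other probes of the 8 genes hold no run of that kind (a unit of 1 to 4 bases over at least 16 bases). A 20-base stretch of it recurred in 7 of 32851 promoters of the RefSeq table and in 3 other probes of the array. None of the other 10 member probes had such a match. The brightest and second probes lie at chr7:63034088-63034147 and chr7:63033826-63033885 (mm9, plus strand, as the array files give them), and both are assigned to the same Siglech transcript. The remaining probe, at chr7:63028608-63028667, belongs to another transcript model and is called the third probe.

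Promoter sequence was looked at for the genes that moved together. P2ry12 and P2ry13 are neighbours on chromosome 3, so both promoters are printed, with that of Fcrls, the other member whose window held the motif. Each run gives the 250 bases before the start in the RefSeq table (GRCm38.p6), read along the gene, and capitals mark GAGGAA, the core bound by PU.1 and other ETS factors with its flank.
P2ry12, chr3:59262986-59263235, minus strand: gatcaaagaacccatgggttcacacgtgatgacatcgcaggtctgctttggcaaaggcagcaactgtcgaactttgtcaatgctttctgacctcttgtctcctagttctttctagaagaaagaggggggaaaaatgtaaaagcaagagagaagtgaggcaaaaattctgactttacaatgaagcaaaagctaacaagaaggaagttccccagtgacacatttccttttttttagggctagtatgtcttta
P2ry13, chr3:59210883-59211132, minus strand: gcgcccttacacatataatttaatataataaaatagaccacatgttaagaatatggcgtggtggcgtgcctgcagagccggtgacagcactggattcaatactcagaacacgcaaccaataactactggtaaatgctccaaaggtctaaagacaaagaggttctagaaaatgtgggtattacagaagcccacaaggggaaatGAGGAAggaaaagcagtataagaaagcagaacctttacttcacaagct
Fcrls, chr3:87263525-87263774, minus strand: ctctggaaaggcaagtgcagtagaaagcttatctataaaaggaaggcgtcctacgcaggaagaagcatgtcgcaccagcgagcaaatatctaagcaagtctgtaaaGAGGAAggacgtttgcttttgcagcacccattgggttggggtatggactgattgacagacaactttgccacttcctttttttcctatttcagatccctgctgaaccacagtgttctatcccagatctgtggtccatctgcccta
The table held 8 promoters of 6 members, several for Sall1 and a single one for each other, and Tmem119 and Gpr34 were not matched. GAGGAA on either strand was in 2 of the 8 windows, from 2 of the 6 members, and in 23.3% of all 32851. The longer GAGGAAGT was in 0 of 8 against 2.44%, TGACTCA, the AP-1 site, in 0 of 8 against 4.46%, and CAGACA, a box bound by SMAD factors, in 2 of 8 against 17.1%. These counts are a description of letters in a window.

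Levels are log2 of the processed signal minus the 75th percentile of the same array, which lay at a signal of 658 to 940. Between 57.0% and 64.9% of probes per array were well above background, and the dimmest such probe stood at −5.95 to −5.17. A gene with no array of a group above background has only an upper limit there, and its difference is then given as "at least N-fold". Differences are those of 1 limma fit over all 12 arrays, with the SE of the fit and p-values adjusted over 18630 genes by Benjamini-Hochberg. In all, 8 of the 8 members passed the filter on dim genes. P2ry12, P2ry13 and Sall1 passed it through the CNS groups only, so that a count over the 8 is a description and no support. Every slide (3 in all) carried 1 array per group, always in the same place for a given group, and the effect of that place cannot be told apart from the group. The difference within each slide is given with the result.

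T cells were present in every sample. All 13 T cell core genes were above background in all 4 groups. Their mean level was 5.11 to 5.22 in naive, 4.61 to 4.88 in culture, 3.88 to 4.42 in transfer and 4.52 to 5.18 in immunised arrays.

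P2ry12 encodes the ADP receptor that steers microglial processes toward released nucleotides. Its level was −7.46, −7.71 and −4.03 on naive arrays 1, 2 and 3 and −8.22, −7.95 and −6.13 on the cultured arrays. It was −0.57, −0.70 and −0.28 after transfer and −0.58, −0.35 and −0.07 after immunisation. All 6 CNS arrays lay above all 6 others. Of the others, naive array 3 was the only one well above background. P2ry12 was 6.91 ± 0.85 log2 higher in transfer than in culture (adjusted p = 0.000244), at least 37.9-fold, and at least 43.2-fold higher in the immunised group than in culture. Against naive cells the differences were 5.88 ± 0.85 and 6.07 ± 0.85 (adjusted p = 0.000306 and 0.000266). Within slides they ran from 3.74 to 7.01 for transfer and from 3.96 to 7.36 for immunisation. Without naive array 3 they were 7.06 and 7.25. Naive array 3 also had the highest platelet list mean of all arrays, −5.46 against −6.28 and −6.16 on the other naive arrays. Its plasmacytoid dendritic cell list mean was −1.59, against −1.93 and −1.73. Of 11 border macrophage genes 3 were above background on it, Pf4, Cd36 and Cd209f, against 0 on both other naive arrays. The mean of that list was −6.54 on naive array 3, against −7.04 and −7.23. Of 8 platelet genes 3 were above background on each naive array, Treml1, Gp1bb and Itga2b, while Gp5 and Gp9 were so on no array. The rise on naive array 3 was not limited to these lists. Among naive arrays it had the highest mean of every list except T cell core genes. B cell genes, for example, read −2.06 against −2.14 and −3.32 on naive arrays 1 and 2. It also had 64.9% of probes above background, against 57.0% and 59.2% on those arrays. The part of any of these cells, or of the array as a whole, in the P2ry12 value was not tested.

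P2ry13, the gene of another ADP receptor, lies beside P2ry12 on the chromosome. Naive levels were −7.42, −6.68 and −7.89, and cultured levels −7.58, −6.32 and −7.68. Transfer arrays read −0.81, −0.09 and −0.26, and immunised arrays 0.17, −0.66 and 0.40. No naive or cultured array was above background and every CNS array was. P2ry13 rose by 6.81 ± 0.44 from culture to transfer, at least 41.6-fold (adjusted p = 5.81e-06), with 6.23 to 7.42 within slides. It was at least 53.2-fold higher in immunised than cultured cells. Against naive cells the bounds were 36.4-fold for transfer and 46.5-fold for immunisation.

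Gpr34, the receptor for lysophosphatidylserine, was measured in all groups. It read −1.73, −2.77 and −2.45 in naive and −2.84, −5.18 and −5.23 in cultured cells. After transfer the 3 arrays were close together at −0.27, −0.19 and −0.27, and in the immunised group they were −1.56, −0.29 and −0.66. Cultured cells were lowest and naive cells next, and both CNS groups lay above them without overlap. Gpr34 rose by 4.17 ± 0.59 from culture to transfer (adjusted p = 0.000557; 2.56 to 4.99 within slides) and by 3.58 ± 0.59 from culture to the immunised group (adjusted p = 0.00122). Transfer exceeded naive cells by 2.08 ± 0.59 (adjusted p = 0.0138). The immunised group differed from naive cells by 1.48 ± 0.59 (adjusted p = 0.0576), which did not pass, with 0.17 to 2.49 within slides. That difference did pass without immunised array 1, at 1.85 (adjusted p = 0.0429), or without cultured array 1 or 3 (adjusted p = 0.00615 and 0.0454). Adjusted p for it ran from 0.00615 to 0.164 over all alternatives.

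Siglech encodes a sialic acid binding receptor of microglia and plasmacytoid dendritic cells. On its repeat-bearing probe the level was 6.68, 6.29 and 6.93 in naive, 6.29, 6.47 and 6.67 in cultured, 6.52, 6.49 and 6.60 in transfer and 6.29, 6.23 and 6.28 in immunised arrays. The signal itself was 63530 to 80283 on the 12 arrays. This probe passed the test in none of the 6 comparisons. Its immunised minus naive difference of −0.37 ± 0.18 had an adjusted p of 0.116. The second probe behaved otherwise. It stood at −5.01, −7.81 and −3.14 in naive and −7.94, −7.94 and −7.49 in cultured cells, with naive array 3 the only one of these above background. It was −0.99, −2.17 and −1.09 after transfer and −0.78, 0.60 and 0.40 after immunisation, so that neither CNS group overlapped any other. With every gene read from its brightest probe without such a repeat, an alternative chosen after seeing the data, Siglech was 6.37 ± 0.92 higher in transfer than in culture, at least 20.3-fold (adjusted p = 0.000658). In the same fit it was at least 57.2-fold higher in the immunised group than in culture. Its differences from naive cells were 3.90 for transfer (adjusted p = 0.00553) and 5.39 for immunisation (adjusted p = 0.000856). The third probe stayed close to background, at −7.06 to −4.35, with 6 of 12 arrays above it. These were 1 naive, 0 cultured, 2 transfer and 3 immunised arrays. On this probe the immunised group was at least 2.355-fold higher than culture (adjusted p = 0.0101 over all probes). Transfer minus culture was 1.12, with overlap (adjusted p = 0.0741 over all probes).

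**Figure D1:**
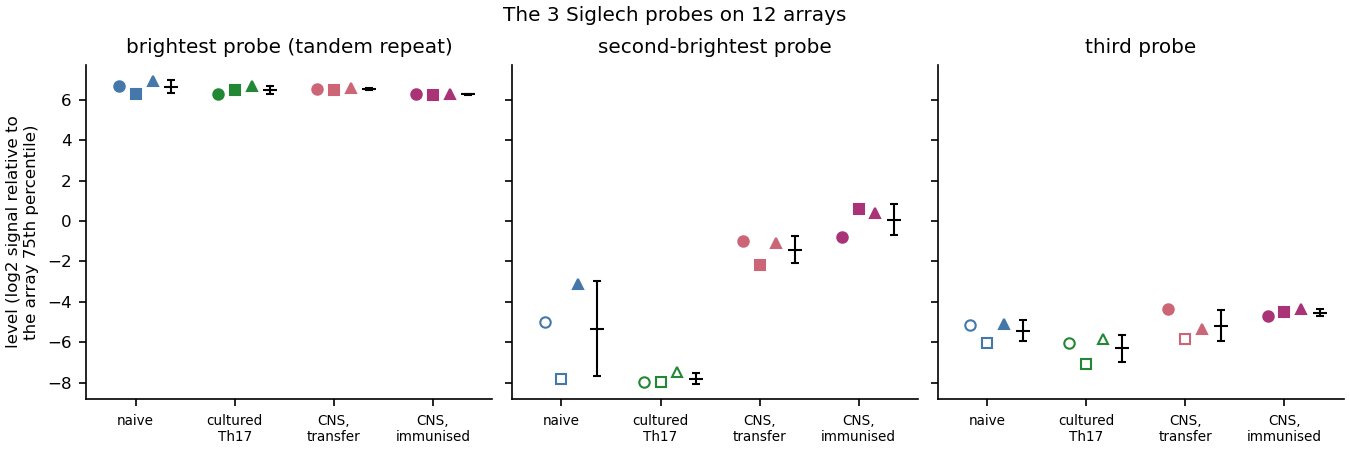
Level of each Siglech probe on the 12 arrays (y axis, log2 signal relative to the array's 75th percentile, shared by the 3 panels; x axis, group). Circles, squares and triangles are arrays 1, 2 and 3, open symbols are not well above background, and bars give mean ± SD (n = 3). The repeat-bearing probe stays between 6.23 and 6.93 everywhere, while the second probe runs from −7.94 in culture to 0.60 in the immunised group.

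Fcrls, an Fc receptor-like scavenger receptor gene of mouse microglia, had levels of −4.98, −5.05 and −3.76 in naive and −4.71, −4.43 and −4.63 in cultured cells. Of the naive arrays 2 were above background. Transfer arrays stood at −2.76, −2.76 and −0.90 and immunised arrays at −0.91, −1.07 and −0.56. Naive and cultured cells shared one range, transfer came next, and its array 3 reached into the immunised range. The rise from culture was 2.45 ± 0.49 with transfer (adjusted p = 0.00429; 1.67 to 3.72 within slides) and 3.74 ± 0.49 with immunisation (adjusted p = 0.000301; 3.36 to 4.06 within slides). From naive cells the rises were 2.46 ± 0.49 and 3.75 ± 0.49 (adjusted p = 0.00208 and 0.000161).

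Tmem119 encodes a transmembrane protein used to stain resident microglia. It was −5.41, −5.59 and −5.38 in naive cells, above background on 1 of 3 arrays, and −3.63, −2.45 and −1.68 in culture, above background on all 3. In transfer it was 1.42, 1.49 and 1.42, and in the immunised group 0.93, 1.33 and 2.07. The order was naive, culture and then the CNS groups, whose ranges overlapped each other and no other. From culture, Tmem119 rose by 4.03 ± 0.43 in both CNS groups (adjusted p = 9.23e-05 for transfer and 7.82e-05 for immunisation). Within slides these rises were 3.095 to 5.05 and 3.74 to 4.57. From naive cells both CNS groups differed by 6.90 ± 0.43. Cultured cells exceeded naive cells by 2.87 ± 0.43 (adjusted p = 0.000429; 1.77 to 3.70 within slides). On the same cultured arrays the list means were above the naive ones for 22 other microglia-enriched genes (−3.73 to −3.25 against −4.88 to −4.46), activated phagocyte genes (0.49 to 1.32 against −2.43 to −2.26) and monocyte genes (−0.79 to −0.02 against −2.67 to −2.61, or −1.85 to −0.68 against −3.21 to −3.10 without repeat-bearing probes). Their part in the Tmem119 value was not tested. P2ry12, P2ry13 and Sall1 were not above background on any cultured array.

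Olfml3, which encodes a secreted glycoprotein of microglia, was above background in all groups on its brightest probe. Its levels were −3.84, −4.06 and −4.04 in naive and −3.79, −3.55 and −4.47 in cultured cells, which overlapped. They were 0.00, 0.75 and 0.86 after transfer and 0.57, 0.49 and 1.64 after immunisation. Olfml3 rose by 4.47 ± 0.35 from culture to transfer (adjusted p = 1.70e-05; 3.80 to 5.33 within slides) and by 4.84 ± 0.35 to the immunised group. Against naive cells the values were 4.52 and 4.88. Its second probe, not above background on any naive or cultured array, gave at least 13.7-fold and 35.6-fold rises from culture.

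Sall1, the zinc finger factor that keeps microglial identity in adult brain, was dim. It lay at −7.40, −8.04 and −7.89 in naive and at −8.15, −8.09 and −7.74 in cultured cells, above background on none of these arrays. CNS levels were −3.08, −3.81 and −2.38 after transfer and −5.36, −3.34 and −2.96 after immunisation. Immunised array 1 was the lowest of the CNS arrays, near the −5.58 at which signals on that array began to be well above background. Sall1 was at least 6.39-fold higher in transfer than in culture (4.90 ± 0.56, adjusted p = 0.000142) and at least 5.58-fold higher than in naive cells. For the immunised group the bounds were 3.67-fold over culture and 3.21-fold over naive cells, with fitted differences of 4.11 and 3.89.

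**Figure D2:**
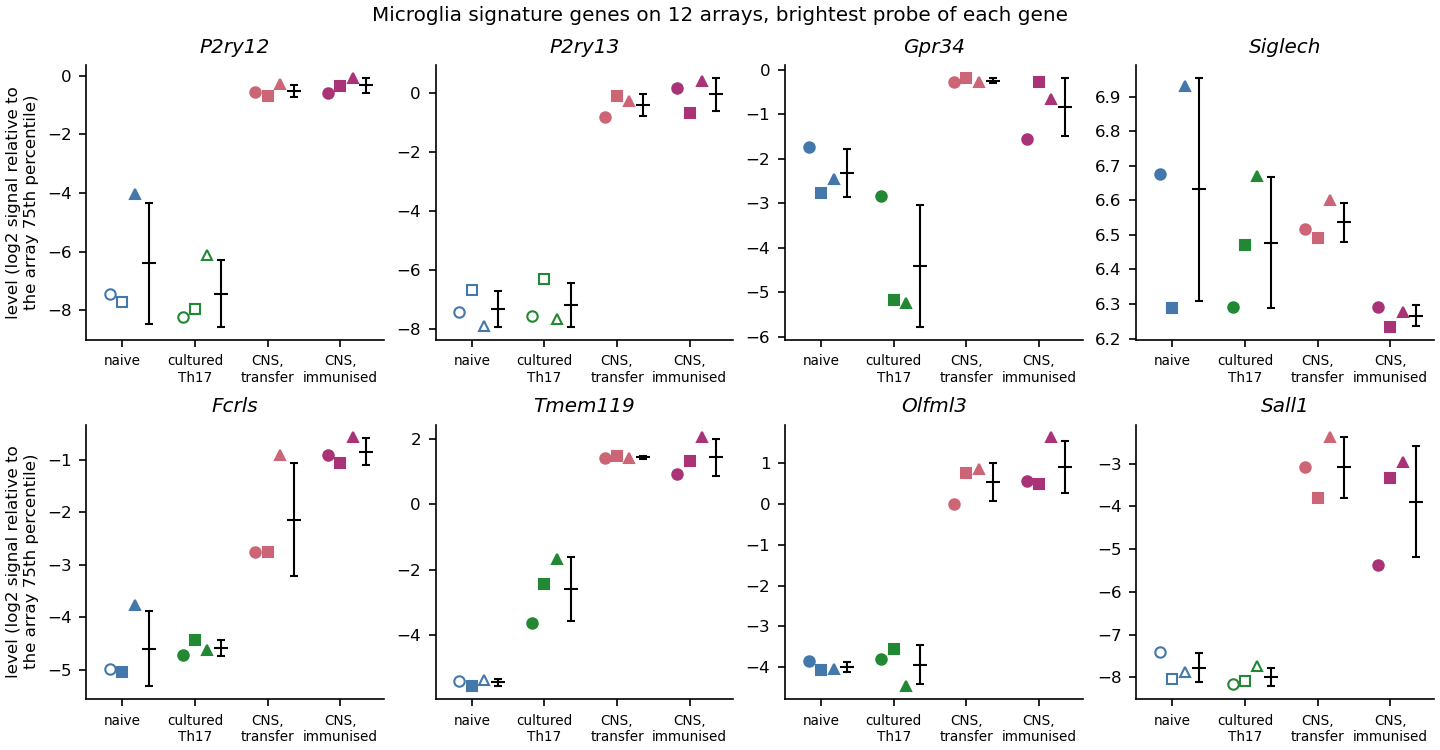
Levels of the 8 genes on their brightest probes (y axis, log2 signal relative to the array's 75th percentile, with its own range in each panel; x axis, group). Circles, squares and triangles are arrays 1, 2 and 3, filled symbols are well above background, and bars give mean ± SD (n = 3). All but Siglech are higher on every CNS array than on every naive or cultured array, and the Siglech panel spans only 6.23 to 6.93.

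Taken by comparison, 7 of the 8 genes were called higher in transfer than in culture and 0 lower, where 12.8% of all genes tested were called higher and 15.5% lower. Their median difference was 4.32, beside −0.098 over all genes. Against naive cells transfer also gave 7 higher and 0 lower (21.2% and 26.5% of all genes), with a median of 4.60 beside −0.12. The immunised group gave 7 higher and 0 lower against culture (13.7% and 17.8% of all genes; median 4.07 beside −0.17) and 6 higher and 0 lower against naive cells (20.6% and 27.7%; median 4.38 beside −0.192), with Gpr34 the gene that missed. With probes that hold no tandem repeat, a choice made after seeing the data, the counts were 8, 8, 8 and 7 in that order. There Siglech too passed the filter through the CNS groups only, so these counts are no support. Of all 18431 genes in that fit 2294, 3887, 2567 and 3860 were called higher in the same order. These comparisons share their groups and are not independent of one another. With a normexp background correction, which adds an offset of 50 before the logarithm, the differences of dim genes were smaller, from 6.91 to 3.27 for P2ry12 and from 4.90 to 1.45 for Sall1 between transfer and culture, and both still passed. A bulk RNA level cannot tell fewer cells of a type from less RNA per cell.

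**Figure D3:**
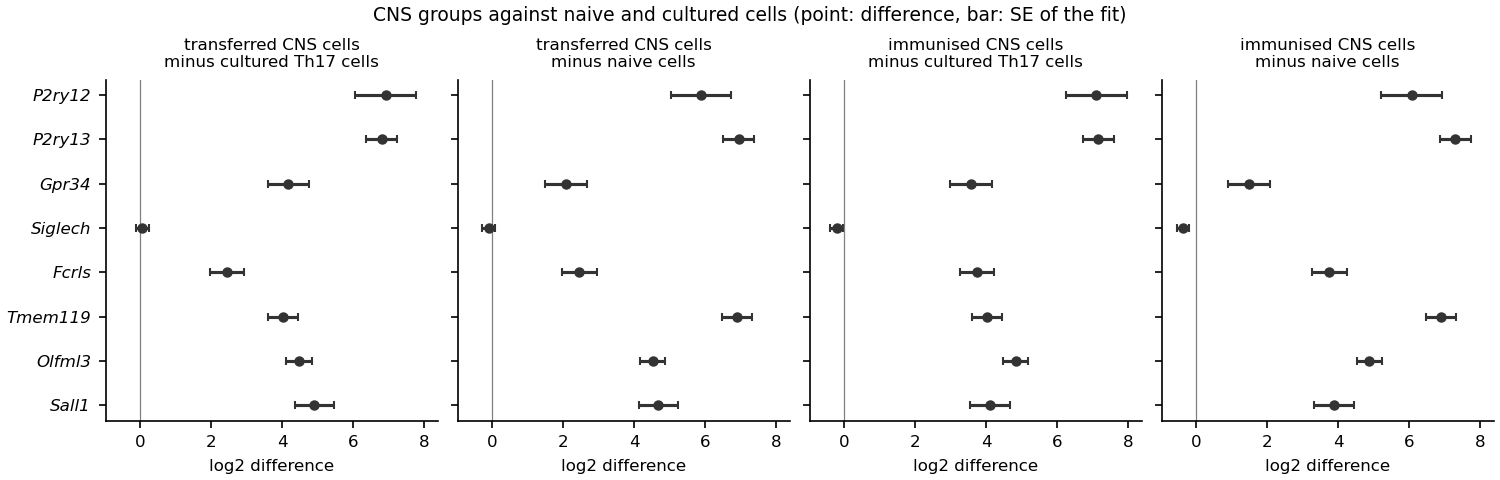
Differences of both CNS groups from cultured and naive cells for each gene (x axis, log2 difference on the brightest probe; y axis, gene; bars, SE of the limma fit). Points for P2ry12 and P2ry13 lie between 5.88 and 7.30, Fcrls between 2.45 and 3.75, and Siglech next to 0 on its repeat-bearing probe.

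Between the CNS groups, 0 of the 8 genes were called in either direction by limma, where 1.85% of all genes were higher and 1.37% lower. The immunised minus transfer difference was 0.19 for P2ry12 (95% interval −1.70 to 2.08), 0.35 for P2ry13 (−0.61 to 1.32), 0.00 for Tmem119 (−0.94 to 0.95) and 0.36 for Olfml3 (−0.42 to 1.14). Gpr34 differed by −0.59 (−1.89 to 0.70) and Sall1 by −0.80 (−2.03 to 0.44). Of these intervals, all but that of Tmem119 reach past a log2 difference of 1 in at least 1 direction, so the groups are not shown to be alike. The repeat-bearing Siglech probe differed by −0.27 (−0.67 to 0.13). Fcrls was 1.29 ± 0.49 higher in the immunised group (0.21 to 2.37; adjusted p = 0.174), positive on all 3 slides at 0.34 to 1.84. Without transfer array 3 it was 1.91 (adjusted p = 0.0351), and its adjusted p ran from 0.0351 to 0.372 over all alternatives. The second Siglech probe was 1.49 ± 0.92 higher (adjusted p = 0.401), with 0.21 to 2.78 within slides. The second Olfml3 probe was 1.38 ± 0.42 higher (adjusted p = 0.101 over all probes), without overlap of the groups. Transfer array 3 had the highest border macrophage mean of all arrays, at 0.76 against −1.61 and −1.60 on the other transfer arrays.

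**Figure D4:**
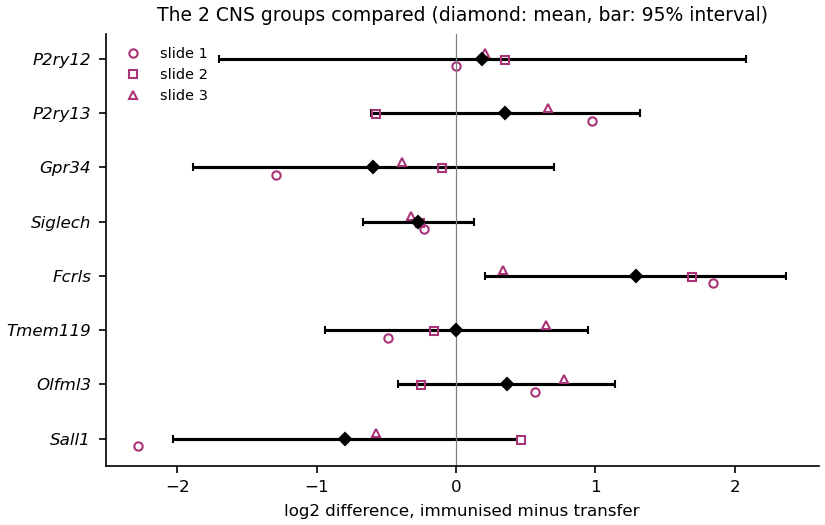
Immunised minus transfer difference of each gene on its brightest probe (x axis, log2; y axis, gene). Diamonds and bars give the difference with its 95% interval from the limma fit, and open symbols the differences within slides 1, 2 and 3. The interval of Fcrls, 0.21 to 2.37, is the only one that leaves out 0, before adjustment over genes.

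Between cultured and naive cells 1 gene rose (Tmem119) and 1 fell, where 19.7% of all genes rose and 20.3% fell. Gpr34 fell by 2.10 ± 0.59 on the log2 scale (adjusted p = 0.0161; adjusted p from 0.000402 to 0.0662 over all alternatives). That call was lost without naive array 1 (−1.80, adjusted p = 0.0578), cultured array 2 (−1.71, 0.0586) or cultured array 3 (−1.69, 0.0554).

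Other microglia-enriched genes moved with these 8. Of 21 tested, 18 rose and 0 fell from culture to transfer, with a median of 4.40 beside −0.098 over all genes, and 17 rose from culture to the immunised group. Csf1r, the receptor that microglia and other macrophages need to survive, rose by 5.97 from culture to transfer and by 6.03 to the immunised group. The protease inhibitor gene Cst3 rose by 2.05 with transfer, while Golm1 differed by 0.16 (adjusted p = 0.73). Between the CNS groups 1 of the 21 genes was called, Ltc4s, a leukotriene synthase gene, at −1.97 (adjusted p = 0.00172). Among 14 tested regulators of microglial identity 8 rose and 1 fell from culture to transfer (median 2.01), and 7 rose from culture to the immunised group. Smad3, a mediator of TGF-beta signals, fell by 2.05 and was the one regulator called between the CNS groups, 1.51 higher after immunisation (adjusted p = 0.0174). Tgfbr2, the receptor for that signal, differed by −0.17 (adjusted p = 0.747) and Nrros, which presents TGF-beta on microglia, rose by 2.05, both from culture to transfer. That rise of Nrros was from a low level in culture. Its means were 3.80 in naive, 1.8 in cultured, 3.845 in transfer and 3.97 in immunised cells. Against naive cells Nrros differed by 0.04 in transfer (adjusted p = 0.914) and by 0.17 in the immunised group (adjusted p = 0.648). Smad3, Tgfbr2 and Nrros were above background on all naive and cultured arrays too.

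Among 6 tested P2Y receptor relatives of P2ry12, 3 rose and 2 fell from culture to transfer. P2ry6, the UDP receptor that triggers microglial phagocytosis, rose by 7.23 and P2ry14, the UDP-glucose receptor, by 4.02 (adjusted p = 0.00571). P2ry10 and Gpr171, both known in lymphocytes, fell by 1.09 and 1.14. In the RefSeq table (GRCm38.p6) Gpr171, P2ry14, P2ry13 and P2ry12 all lie on chromosome 3. Of these, Gpr171 fell and P2ry14, P2ry13 and P2ry12 rose from culture to transfer. Against naive cells Gpr171 was higher as well, by 1.155 in transfer (adjusted p = 0.000302) and 1.56 in the immunised group (adjusted p = 4.5e-05). In each CNS group 5 of the 6 relatives were higher than in naive cells and 0 lower. Among all genes 21.2% were higher in transfer and 20.6% in the immunised group. P2ry10 was called between the CNS groups, 1.32 higher after immunisation (adjusted p = 0.0378).

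Genes of other lists moved on the same arrays, and their part in the member values was not tested. The activated phagocyte list shares a gene with the other microglia-enriched list, so it does not mark other cells alone. Activated phagocyte genes had 15 higher and 1 lower of 17 from culture to transfer (median 3.29), with the lipid carrier gene Apoe at 10.28 and the lysosomal protease genes Ctsd and Ctsb at 2.74 and 2.53. Lgals3, a galectin, rose by 1.67 as well. The list summed to 31.5 to 37.4 on naive, 109 to 139 on cultured, 820 to 1470 on transfer and 502 to 1020 on immunised arrays. Monocyte and infiltrating macrophage genes had 12 higher and 1 lower of 17 (median 6.01), and sums of 76.7 to 137, 85.8 to 194, 747 to 1410 and 541 to 1080 in the same order of groups. Those sums include repeat-bearing probes of Itgam and Ms4a4c. With probes that hold no repeat the sums were 52.0 to 59.5, 26.8 to 138, 681 to 1190 and 516 to 998, and 13 genes were higher and 1 lower. Arg1, Ms4a7, Adgre1 and Fcgr1, genes of monocytes and macrophages, were not above background on any naive array. In that list Plac8 was 2.23 higher in the immunised than in the transfer group (adjusted p = 0.047), and S100a4 differed by 1.57 from culture to transfer (adjusted p = 0.293). Border macrophage genes, which mark macrophages of the meninges and vessels, had 7 higher of 8 (median 6.30), and 8 of 11 were not above background on any naive array. Mrc1, their mannose receptor, rose by 7.77 from culture to transfer and was 4.57 lower in the immunised than in the transfer group (adjusted p = 0.00595). Pf4 rose by 5.89 and Clec10a, above background on 2 of 3 cultured arrays, by 6.71, while Stab1 differed by 1.77 (adjusted p = 0.0537).

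The plasmacytoid dendritic cell list, which bears on Siglech, had 4 higher and 1 lower of 12 from culture to transfer (median 0.47) and 8 higher and 0 lower from culture to the immunised group (median 2.44). Between the CNS groups 3 of its genes were higher after immunisation, Ly6d by 5.18, Spib by 3.12 and Ccr9 by 2.17, and 0 lower. Ly6d, Spib and Ccr9 are also genes of lymphocytes. Lair1 rose by 3.40 from culture to transfer, and Bst2 differed by 0.57 (adjusted p = 0.114), Tcf4 by −0.11 and Pacsin1 by −0.01. List means were −1.43 to −1.14 on transfer and −0.37 to 0.16 on immunised arrays, both groups in the same order as the second Siglech probe. Summed over the 12 genes on a linear scale relative to the 75th percentile, the list came to 25.7 to 35.5 in naive, 24.0 to 27.8 in cultured, 30.6 to 40.4 in transfer and 37.2 to 55.7 in immunised arrays. Of its genes only Klk1 was at background on a whole group, the cultured one. The B cell gene Ms4a1, which encodes CD20, was also higher after immunisation than after transfer, and was not above background on any transfer array. Of 11 tested neural and glial genes 4 rose and 1 fell from culture to transfer (median −0.115). Without the repeat-bearing probe of Snap25 the median of the other 10 was 1.33, with the same counts of 4 and 1. The oligodendrocyte gene Cnp fell by 0.995, while Mbp differed by −0.24 (adjusted p = 0.463). Both were well above background in naive cells, at means of 2.606 and 4.585. Gfap, Slc1a3 and Rbfox3 were above background on no naive or cultured array, and Syt1 on no cultured array. In both CNS groups each of the 12 neural and glial genes on the array was above background at least once. Only 3 of 8 platelet genes were tested. Of these Treml1 rose by 4.03 from culture to transfer, and Gp1bb and Itga2b did not pass. Against naive cells Treml1 differed by 2.50 in transfer (adjusted p = 0.00147) and by 0.74 in the immunised group (adjusted p = 0.211). Gp1bb differed from naive cells by −0.91 in both CNS groups (adjusted p = 0.0324 and 0.0323). Itga2b was also called lower than in naive cells in both, and was above background on 1 transfer and 0 immunised arrays. T cell core genes had 0 higher and 4 lower of 13 from culture to transfer (median −0.619), and 3 higher and 3 lower from culture to the immunised group. With transfer, Cd2 fell by 1.18 and Cd3d fell by 1.06. Lck and Zap70 differed by −0.56 and −0.36 with transfer and did not pass.

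**Figure D5:**
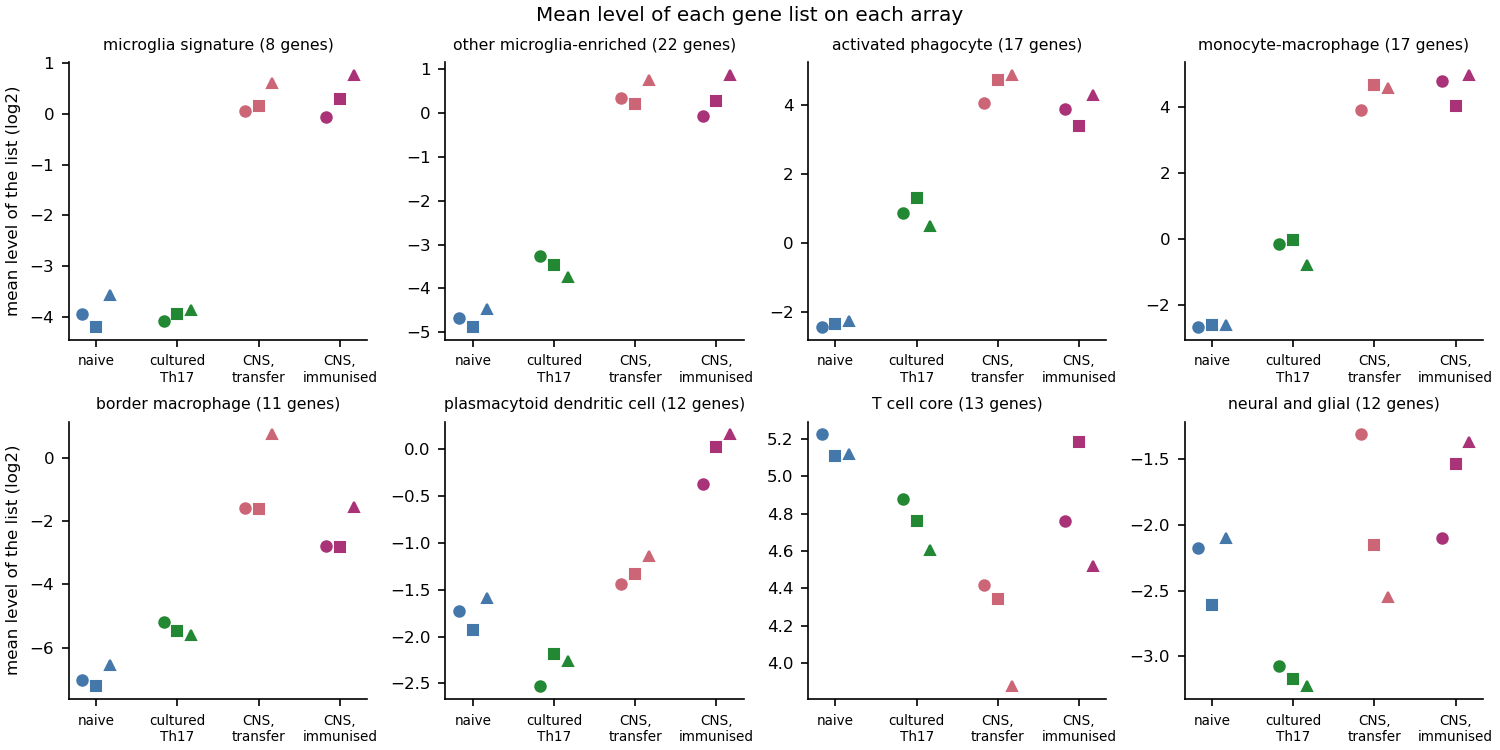
Mean level of 8 gene lists on each array (y axis, log2 signal relative to the array's 75th percentile, with its own range in each panel; x axis, group). Circles, squares and triangles are arrays 1, 2 and 3. The microglia signature lies between −4.20 and −3.56 on naive and cultured arrays and between −0.06 and 0.77 on CNS arrays, and T cell core genes are lowest on transfer array 3 at 3.88.

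Likeness to the 8 genes was measured by the Pearson correlation of a gene's level with the mean standardised level of the 8. Over all 12 arrays the closest named genes were C1qa, the complement starter of macrophages, at 0.989, Zeb2os at 0.987, Man1c1 at 0.986, the kinase gene Btk at 0.984, Fzd4 and the anaphylatoxin receptor gene C3ar1 at 0.983, and Parvb at 0.982. The transcript TC1709410 of the array design reached 0.988. Each member's own correlation was 0.980 for P2ry12, 0.970 for Sall1, 0.966 for Olfml3, 0.952 for P2ry13, 0.922 for Fcrls, 0.892 for Tmem119, 0.831 for Gpr34 and −0.187 for Siglech. The mean of the 8 held the member itself and the repeat-bearing Siglech probe, here and over the 6 CNS arrays. A member's own part raises its value, so a positive value alone does not show likeness to the other members. The 12 arrays fall into CNS and other groups, and these values describe that split. Over the 6 CNS arrays alone the values ran from 0.845 for Tmem119 and 0.828 for P2ry12 to 0.444 for Fcrls, 0.383 for P2ry13, 0.363 for Gpr34 and 0.115 for Siglech on its repeat-bearing probe. The closest genes there were Prap1 at 0.992, Rpl39l and Fam167b at 0.969, 1700001K23Rik at 0.963, Slc3a2 at 0.960, Myh10 at 0.955, Cavin3 at 0.954 and Vma21 at 0.951. The top 8 over 12 and over 6 arrays had no gene in common. Within the immunised group array 3 was the highest for 6 of the 8 genes, and within the transfer group array 3 for 5 of 8.

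The probes lie, in mm9 coordinates of the array files, at chr3:59020598-59020657 for P2ry12, chr3:59012054-59012113 for P2ry13, chrX:13217863-13217922 for Gpr34 and chr3:87056422-87056481 for Fcrls. Those of Tmem119, Olfml3 and Sall1 are at chr5:114243962-114244021, chr3:103539590-103539649 and chr8:91551278-91551337. Their place in an exon or UTR was not analysed here.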

How the data were processed

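Total RNA of 12 samples was labelled with Cy3 and hybridised to 1-colour Agilent arrays. Per the file headers, the deposited intensity values came from the GE1_107_Sep09 protocol of Agilent Feature Extraction (version 10.7.3.1), which subtracted background and did not normalize between arrays. The authors also deposited a matrix of intensity values whose normalization is not stated, used as an alternative only, and probe coordinates are those of mm9, per the file headers.

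Spots marked as outliers and control spots were left out, repeated spots were averaged, and 39405 probes remained. Genes kept the symbol of the array files, updated by RefSeq accession for 27217 probes. The log2 processed signal of the deposited files was scaled to each array's 75th percentile. For a gene to be tested, its brightest probe had to be well above background throughout 1 group or more. All 12 arrays entered limma 3.58.1 (R 4.3.3; lmFit, eBayes; 8 residual and 2.485 prior degrees of freedom), with Benjamini-Hochberg adjustment over 18630 genes and a threshold of 0.05. The fit was checked on simulated data. Tables and plots used Python 3.11.15, pandas 2.3.3 and matplotlib 3.10.9.

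The 8 members and 11 gene lists were chosen with earlier results of these data known. Named genes were the members, up to 4 tested genes per list with the highest mean level, and the 8 genes most correlated with the members. Ltc4s, Ly6d, Spib, Ccr9, Ms4a1, Cd36, Cd209f and genes at background were named after their values were seen. Alternatives were other scaling, background correction, filters, probe choice, threshold, prior, sample choice, the deposited matrix, a replicate block and leaving out each array. Some results are not reported here because they concern withheld items.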

Additional observations from a re-analysis of the deposited data

How the results depend on the processing

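The 4 CNS comparisons kept P2ry12, P2ry13, Tmem119, Sall1, Olfml3 and Fcrls called higher under every alternative run in which they were tested. With only genes well above background on all 12 arrays 3 members were tested, Olfml3, Gpr34 and Siglech on its repeat-bearing probe. Of these 2, Olfml3 and Gpr34, were called higher in each of the 4 CNS comparisons and 0 in culture against naive cells. Among all 14917 genes with that filter 1598 were called higher in transfer against culture and 2761 in transfer against naive cells. For the immunised group 1631 were higher against culture and 2625 against naive cells, and 2846 were higher in culture against naive cells. At an adjusted p under 0.01, all genes called numbered 2687 for transfer against culture, 3279 for immunised against culture, 185 between the CNS groups and 4708 for culture against naive cells, and no member was then lower in culture, 0 against 1. With only the 6 arrays compared, transfer against culture had 3313 called genes and culture against naive cells 0 members lower. Between the CNS groups 600 genes were called, 371 with no filter, 367 with the 12-array filter and 193 to 1290 with 1 array left out. Leaving out 1 array gave 0 to 1 members higher between the CNS groups (Fcrls), 0 to 1 lower in immunised against naive cells (Siglech, without naive replicate 2) and 0 to 1 lower in culture against naive cells (Gpr34). Median scaling moved the median of all genes from −0.098 to −0.212 for transfer against culture.

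Signs turned as follows. For Siglech, transfer minus culture was −0.055 with median scaling and −0.034 to 0.156 with 1 array left out. Its transfer minus naive difference was 3.309 with the median of its probes, 3.902 without repeat probes and −0.267 to 0.054 with 1 array left out. Immunised minus naive was 4.801 and 5.393 under those probe choices. Immunised minus culture was 0.167 with quantile normalization, 0.166 with the deposited matrix, 6.372 with the median of probes and 7.862 without repeat probes. Between the CNS groups Siglech was 0.022 with quantile normalization and with the matrix, and 1.492 with either probe choice. Tmem119 between the CNS groups was −0.039, −0.014 and −0.04 with quantile normalization, normexp and the matrix, and −0.309 to 0.257 with 1 array left out. Olfml3 there was −0.006 to 0.567 with 1 array left out. In culture minus naive, Sall1 was 0.01 and 0.011 with quantile normalization and the matrix, and Olfml3 −0.038 and Fcrls −0.06 with normexp. With 1 array left out, culture minus naive was −0.15 to 0.312 for Olfml3, −0.217 to 0.427 for Fcrls, −1.691 to 0.15 for P2ry12 (−1.03 on all 12 arrays, 0.15 without naive replicate 3) and −0.296 to 0.461 for P2ry13. The 2 other probe choices for Siglech read other sequence, and the cause of these turns was not tested. Gpr34 in immunised against naive cells also passed with normexp, with the 12-array filter and with only 6 arrays (adjusted p = 0.0117, 0.0498 and 0.0235).

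Same-numbered arrays deviated together at r of −0.198 to 0.204 (median 0.036; 4 of 18 pairs over 0.1), so the numbers were not taken as pairs. With the replicate block, called genes numbered 5069, 8666, 8869, 5603, 557 and 7171 over the 6 comparisons, and called members 7, 7, 6, 7, 0 and 2. Signals near background limit P2ry12, P2ry13 and Sall1 in naive and cultured cells to bounds.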

Other observations

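Tandem repeats of the kind in the Siglech probe were in 310 of 39405 probes (0.787%). Their median signal was 4997, against 46.0 for probes without one. Among 7263 genes with several probes, the brightest probe held one in 109 (1.5%), against 22 of the 9304 other probes (0.236%). In the gene lists used here, the brightest probes of Itgam, Ms4a4c, Snap25 and Cd22 also held one. These genes were singled out after their values were seen.

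Itgam, the CD11b chain of myeloid cells, had mean levels of 5.54 ± 1.05 in naive, 4.24 ± 0.30 in cultured, 3.28 ± 0.37 in transfer and 4.16 ± 0.49 in immunised cells on its repeat-bearing probe (SD, n = 3). On its brightest probe without a repeat they were −3.90 ± 0.06, −3.21 ± 0.76, 0.60 ± 0.51 and 1.28 ± 0.53. The repeat-bearing probe was thus highest in naive cells and the other probe highest in the immunised group. The single probe of Snap25, a synaptic gene, held a repeat and read 5.12 ± 1.16 in naive cells, 1.82 ± 0.88 in transfer and 2.82 ± 1.05 in the immunised group.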
